A study of Mus musculus with 6 samples.

Results

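The platelet-derived growth factor (PDGF) family was examined in tumors of B16F10 cells, a mouse melanoma line, grown at 2 sites of the body. The 6 members were taken by symbol from the 45777 genes of the deposited matrix: the ligand genes Pdgfa, Pdgfb, Pdgfc and Pdgfd, and the receptor genes Pdgfra and Pdgfrb. Total RNA of 3 tumors from the hind footpad and 3 from the flank skin was sequenced, with 1 library per tumor, to compare a weight-bearing site with a site that bears no weight. According to the sample labels all hosts were Foxn1-/- (nude) mice at an age of 8 weeks, and the methods of the study describe grafts of this line in nude mice as well as in C57BL/6J mice, so the hosts are given here as labelled. Nude mice lack a thymus and most T cells. Tumors are called footpad 1 to 3 and flank 1 to 3 after their labelled replicate numbers. The study describes simultaneous implantation into both sites and gives n = 3 mice for its expression comparison. The labels do not say which tumors shared a mouse, so the tests treat the tumors as unpaired unless stated otherwise. Their p-values measure only the spread between these tumors, technical variation included. The methods do not say how tumor cells were separated from host cells.

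PDGF ligands are secreted dimers that act on a pair of receptor tyrosine kinases. PDGF-A and PDGF-C chains act mainly on the alpha receptor, PDGF-D mainly on the beta receptor, and PDGF-B on both. In skin and in tumors the alpha receptor is best known from fibroblasts, the beta receptor from fibroblasts and from the pericytes and smooth muscle cells that cover vessels, and PDGF-B from endothelial cells and platelets. Signaling through the receptors drives growth and migration of these stromal cells and the deposition of matrix.

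The libraries held between 46529649 and 66364366 reads on genes, and the members had between 11 and 3716 reads per tumor. Levels are given as CPM, reads scaled to a common library size with the TMM factors of edgeR. The melanocyte genes expected of the line were abundant in every tumor, with 10 markers summing to between 10220 and 25770 CPM. T cell markers summed to at most 1.62 CPM, most of it Lck, and Cd3d, Cd3g and Cd5 had no read in any tumor. Footpad 2 stood apart in keratinocyte and skeletal muscle markers, which summed to 1163 and 1142 CPM there, against at most 42.95 and 201 CPM elsewhere. Neutrophil markers peaked in footpad 1, with 377 CPM against 7.19 CPM in footpad 2. In the edgeR test described next, 0 of 11 keratinocyte, 11 skeletal muscle, 9 neutrophil, 3 adipocyte and 10 melanocyte markers passed, with 9, 1, 7, 0 and 1 of them at an unadjusted p under 0.05 and 2, 0, 1, 0 and 0 passing in DESeq2. Low unadjusted p values were common over all 17210 genes tested. The edgeR p of 0.00894 for Pdgfra ranked 1814th and that of 0.107 for Pdgfd 6244th, so the number under 0.05 lay between these ranks. Of 8 Schwann cell markers 1 was higher in footpad tumors, and of 5 bone and cartilage markers 1 was higher and 1 lower. Over all genes tested, 2.89% passed as higher and 0.872% as lower. In bulk RNA, fewer cells of a type cannot be told apart from less RNA per cell, nor melanoma transcripts from those of host cells.

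All 6 members had a higher mean level in footpad tumors, and 3 of them, Pdgfrb, Pdgfb and Pdgfc, passed the edgeR quasi-likelihood test over 17210 genes, for which the Benjamini-Hochberg adjusted p had to be under 0.05 and the fold change at least 2. No member passed as lower. Over all genes tested, 2.89% passed as higher and 0.872% as lower in footpad tumors. For 5 of the 6 members every footpad tumor lay above every flank skin tumor, which was so for 17.5% of all genes tested, with 14.9% separated the other way. The exception was Pdgfd. A log2 fold change above 0 was found for 49.7% of the genes tested. DESeq2 passed 4 members as higher, with Pdgfra added, where 5.96% of its genes passed as higher and 1.82% as lower. The count of 3 members fell to 1 in edgeR without flank 1 and to 0 without footpad 1, footpad 3 or flank 3, while 4 or 5 members were at least 2-fold apart with p under 0.05 before adjustment. All 6 members passed edgeR's filter on low counts.

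**Figure D1:**
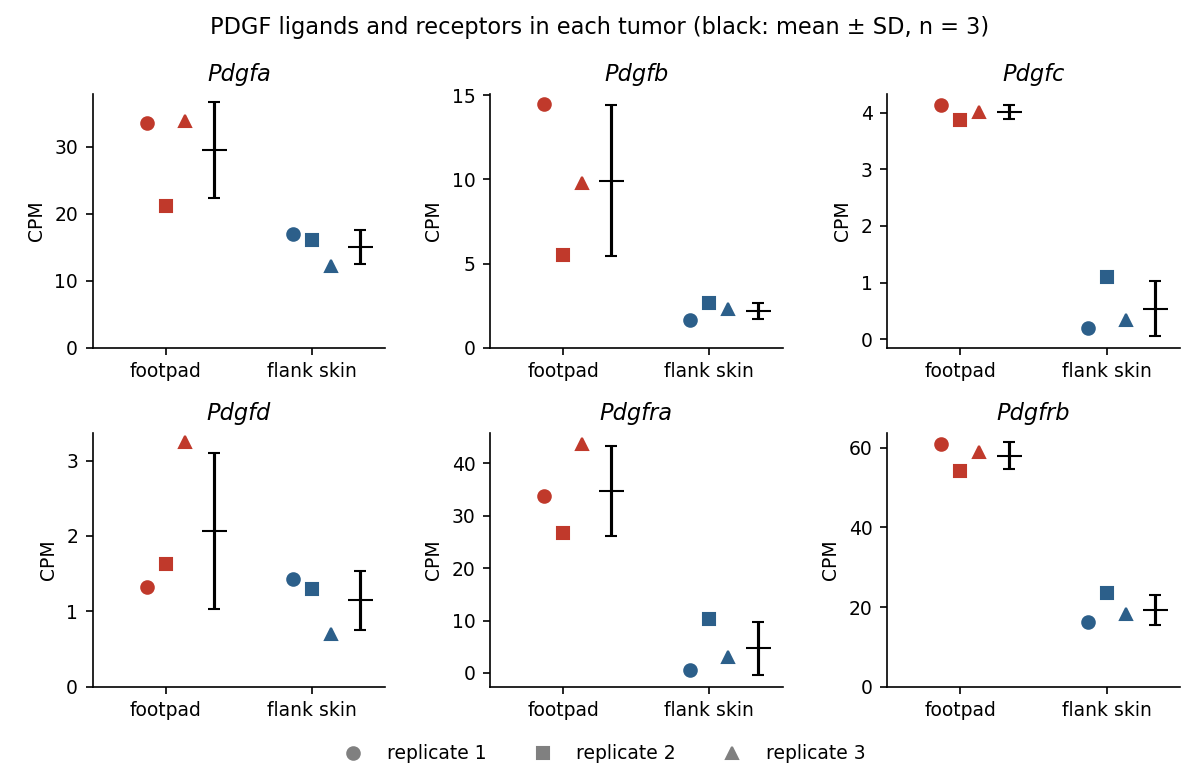
Level of each PDGF gene in CPM (vertical axes, each from 0 or just below) in the 3 footpad tumors (red) and the 3 flank skin tumors (blue), with the marker shape giving the replicate number and the black bar the mean ± SD (n = 3). The sites are apart for 5 genes and overlap for Pdgfd, and flank 2 is the highest flank skin tumor for Pdgfb, Pdgfc, Pdgfra and Pdgfrb.

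Of the receptors, Pdgfrb had the smallest p of the family. It encodes the beta receptor, lies on chromosome 18 of GRCm38 from 61045127 to 61085067, and measured 61.0, 54.2 and 58.9 CPM in footpad 1, 2 and 3. Flank 1, 2 and 3 had 16.25, 23.5 and 18.2 CPM. The lowest footpad tumor was 2.31 times as high as the highest flank skin tumor, and the footpad tumors varied little. The means were 58.0 ± 3.49 and 19.3 ± 3.73 CPM (SD, n = 3), a 3.005-fold difference or 1.59 in log2 (SE, the standard error, 0.17, edgeR adjusted p = 0.00984). Its p ranked 31st among all genes tested. With a tumor left out, the log2 fold change stayed between 1.47 and 1.75, while the adjusted p rose to 0.0584 without footpad 1, 0.0702 without footpad 3 and 0.0577 without flank 3 (edgeR).

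Pdgfra, which encodes the alpha receptor, had a larger fold change and a wider spread. It lies on chromosome 5 from 75151322 to 75198206 and measured 33.7, 26.7 and 43.7 CPM in footpad 1, 2 and 3. Flank 1, 2 and 3 had 0.621, 10.4 and 2.99 CPM. All footpad tumors lay above all flank skin tumors, but flank 2 was far above flank 1, which had 36 reads. The log2 fold change was 2.90 (SE 0.83), a 7.44-fold difference, and it did not pass (edgeR adjusted p = 0.0848). DESeq2 gave an adjusted p of 0.0374, and over all alternatives the adjusted p lay between 0.0268 and 0.234. Without flank 2 the log2 fold change was 4.25 and the adjusted p 0.0348 from edgeR.

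Among the ligands, Pdgfb and Pdgfc passed. Pdgfb, on chromosome 15 from 79995865 to 80024614, encodes the chain that can bind both receptors. Footpad 1, 2 and 3 had 14.5, 5.48 and 9.78 CPM of it, whereas flank 1, 2 and 3 had 1.67, 2.63 and 2.27 CPM. Footpad 1 was the highest and footpad 2 the lowest of its site, yet footpad 2 was 2.08 times the highest flank skin tumor. The fold change was 4.51 (log2 fold change 2.17, SE 0.39, edgeR adjusted p = 0.0301). Of the fits without a tumor, the one without footpad 2 kept the call (edgeR adjusted p = 0.0194). The others lost it, with adjusted p values from edgeR of 0.0981 and 0.119 without footpad 1 and 3, and of 0.0691, 0.0561 and 0.109 without flank 1, 2 and 3.

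Pdgfc, on chromosome 3 from 81036416 to 81214040, encodes a chain that is secreted in a latent form and needs proteolysis, for which tissue plasminogen activator (Plat) is a known enzyme. Its levels in the footpad tumors were close together, at 4.13, 3.88 and 4.02 CPM. Flank 1, 2 and 3 had 0.190, 1.09 and 0.336 CPM, from 11, 64 and 21 reads. The exact Poisson 95% interval of the lowest of these, which covers counting error only, ran from 0.0947 to 0.339 CPM, below all footpad tumors and below flank 2. The fold change was 7.41 (log2 fold change 2.89, SE 0.62, edgeR adjusted p = 0.0454). Without flank 2 the log2 fold change was 3.91 (edgeR adjusted p = 0.0139). The call was lost when any of the others was left out: the adjusted p from edgeR was 0.140, 0.0577 and 0.142 without footpad 1, 2 and 3, and 0.0683 and 0.147 without flank 1 and 3.

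Pdgfc and Pdgfra had the largest fold changes of the family, and for these the 250 bases before the annotated start are shown from RefSeq (GRCm38.p6, plus strand, 5′ to 3′). They lie at chr3:81036166-81036415 for Pdgfc and at chr5:75152001-75152250 for Pdgfra, whose gene span in RefSeq begins before this start. Capitals mark GGAATG, the core of the motif bound by TEAD factors, the partners of YAP, searched on both strands.
Pdgfc: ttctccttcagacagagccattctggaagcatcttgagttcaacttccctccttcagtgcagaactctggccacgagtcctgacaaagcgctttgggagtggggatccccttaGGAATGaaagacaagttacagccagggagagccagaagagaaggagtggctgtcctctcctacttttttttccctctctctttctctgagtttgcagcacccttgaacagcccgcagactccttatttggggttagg
Pdgfra: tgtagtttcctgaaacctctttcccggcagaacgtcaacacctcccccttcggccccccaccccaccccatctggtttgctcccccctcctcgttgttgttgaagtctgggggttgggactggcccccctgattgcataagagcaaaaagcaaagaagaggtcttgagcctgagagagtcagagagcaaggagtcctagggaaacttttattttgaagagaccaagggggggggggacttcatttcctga

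The Pdgfc window held the motif 137 bases before the start, and a second copy on the other strand began 38 bases after it. The Pdgfra window held none. Among 32851 promoter windows of 300 bases, from 250 before to 50 after a start, 14.7% held at least 1 copy and 1.36% held 2 or more. The table had 5 windows for 4 members, and neither the 2 windows of Pdgfa nor that of Pdgfd held the motif. A GC box (GGGCGG, both strands), present in 35.7% of all windows, was found in both windows of Pdgfa and in none of Pdgfc, Pdgfd or Pdgfra. The AP-1 motif TGANTCA was in none of the 5 windows and in 7.81% of all. These matches describe letters only and say nothing about binding.

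Pdgfa and Pdgfd did not pass. Pdgfa, on chromosome 5 from 138976014 to 139000792, encodes the PDGF-A chain, which epidermal cells are known to supply to the dermis. Footpad 1, 2 and 3 had 33.5, 21.2 and 33.8 CPM, and flank 1, 2 and 3 had 16.9, 16.1 and 12.1 CPM. The sites did not overlap, and footpad 2, rich in keratinocyte markers, had the lowest level of its site. How far epidermal cells account for the level of Pdgfa was not tested. The log2 fold change of 0.97 (SE 0.23) was a 1.96-fold difference (edgeR adjusted p = 0.0547). Without footpad 2 it was 1.16 and passed (edgeR adjusted p = 0.0278). Pdgfd, on chromosome 9 from 6168363 to 6534284, encodes the second latent chain, for which urokinase (Plau) is a known activator. Its values were 1.32, 1.63 and 3.25 CPM in footpad 1, 2 and 3, and 1.43, 1.30 and 0.703 CPM in flank 1, 2 and 3. Footpad 1 lay within the range of the flank skin tumors, and footpad 3 was well above the rest. The log2 fold change was 0.85 (SE 0.47, edgeR adjusted p = 0.295) and 0.37 without footpad 3.

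**Figure D2:**
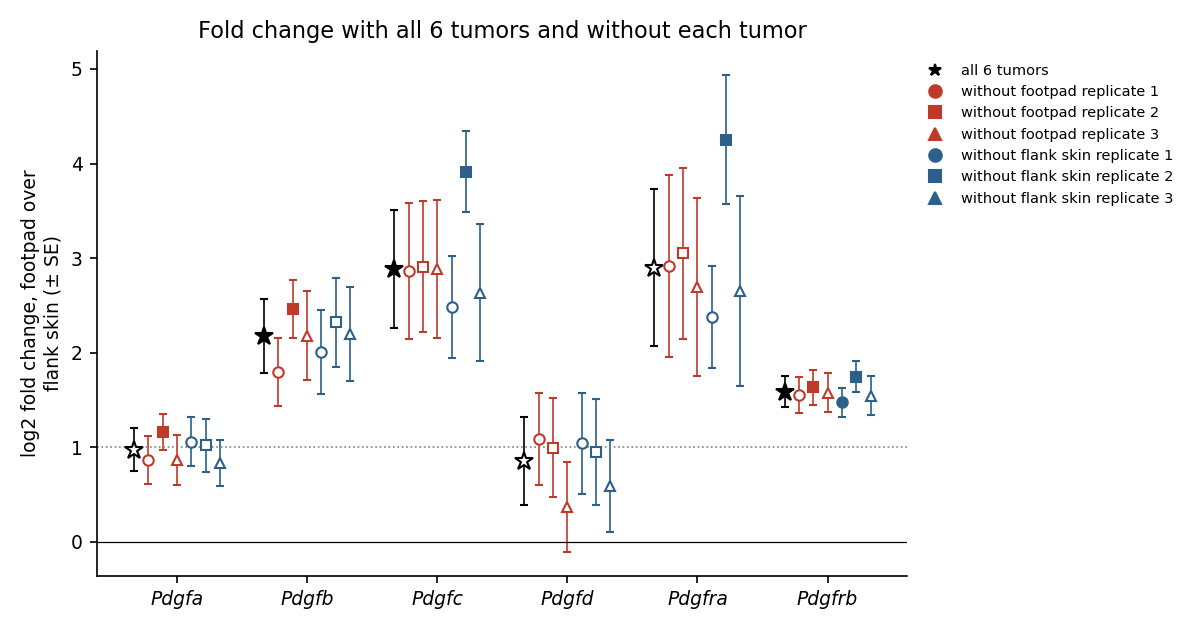
Log2 fold change, footpad over flank skin, with its standard error (vertical axis) for each PDGF gene with all 6 tumors (star) and with each tumor left out; filled markers passed the edgeR test at a 2-fold change, open markers did not, and the dotted line marks a fold change of 2. Pdgfrb has the shortest error bars, and the values of Pdgfra and Pdgfc rise to 4.25 and 3.91 when flank 2 is left out.

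Levels of different genes were compared in FPKM, which the authors scaled for transcript length. Pdgfa was the most abundant ligand in every tumor, with 12.6 ± 2.80 FPKM (SD, n = 3) in footpad and 6.85 ± 1.20 FPKM in flank skin tumors. Pdgfb followed at 2.72 ± 1.10 and 0.623 ± 0.200 FPKM. The other ligands changed places: Pdgfc was above Pdgfd in each footpad tumor, with means of 1.03 ± 0.0803 and 0.606 ± 0.271 FPKM, and below it in each flank skin tumor, with means of 0.139 ± 0.136 and 0.328 ± 0.0970 FPKM. Pdgfrb exceeded Pdgfra in every tumor, with means of 9.58 ± 0.322 against 4.73 ± 1.20 FPKM in footpad tumors and 3.24 ± 0.923 against 0.699 ± 0.772 FPKM in flank skin tumors. In the order of mean FPKM, the only neighbours whose values overlapped in footpad tumors were Pdgfa and Pdgfrb. In flank skin tumors Pdgfra overlapped with all ligands but Pdgfa, and Pdgfc with Pdgfd, while Pdgfa and Pdgfrb stood clear of the rest and of each other.

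The make-up of the family in FPKM also moved with the site. Pdgfa was 73.3%, 74.7% and 75.0% of the summed ligand FPKM in footpad 1, 2 and 3, and 89.5%, 84.1% and 85.6% in the flank skin tumors. Pdgfra was 31.3%, 28.9% and 38.0% of the summed receptor FPKM in the footpad tumors. In flank 1, 2 and 3 it was 3.30%, 26.9% and 13.1%, so that flank 2 came close to the lowest footpad tumor. The ratio of summed ligand to summed receptor FPKM was 1.40, 0.946 and 1.20 in footpad tumors and 3.09, 1.62 and 1.89 in flank skin tumors, without overlap.

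**Figure D3:**
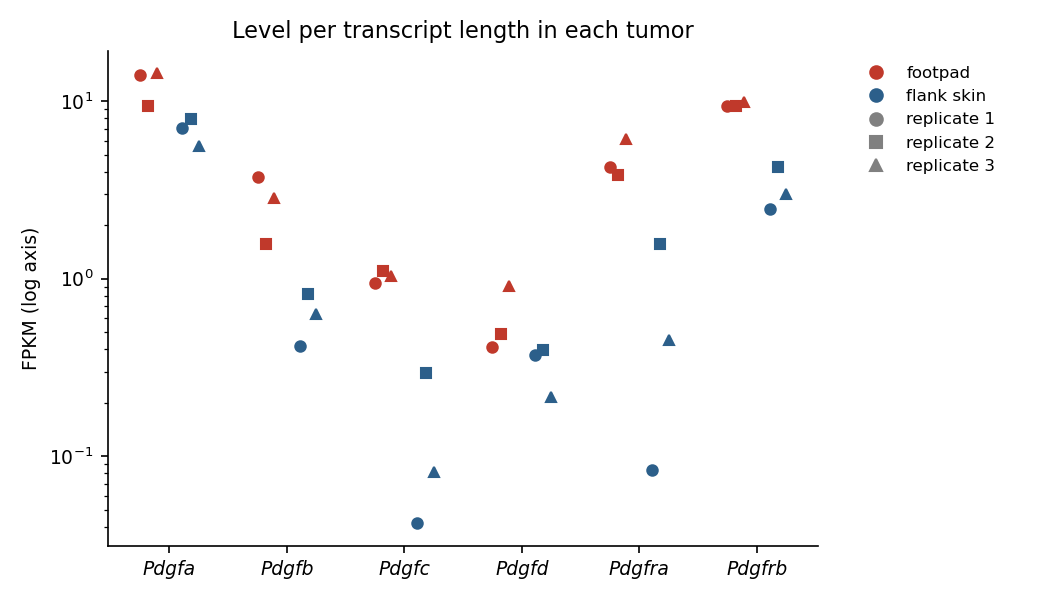
Level per transcript length in FPKM (vertical log axis) of each PDGF gene in the footpad tumors (red) and flank skin tumors (blue), with the marker shape giving the replicate number. Pdgfa and Pdgfrb are the most abundant ligand and receptor in every tumor, and Pdgfc lies above Pdgfd in footpad tumors and below it in flank skin tumors.

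Whether members of the same role changed alike was tested on differences of log2(FPKM + 0.1) within each tumor, with two-sided exact permutation tests over the tumors. With 3 tumors against 3, p cannot go below 0.1, and 6 such relations were tested, counting those with cell-type markers. Pdgfra relative to Pdgfrb was higher in footpad tumors by 1.53 (exact permutation p = 0.1, adjusted 0.15). Its values were -1.11, -1.28 and -0.70 in footpad and -3.80, -1.39 and -2.49 in flank skin tumors, so the gap between flank 2 and the nearest footpad tumor was small. Pdgfa relative to Pdgfb was lower in footpad tumors by 1.06 on the log2 scale (mean 2.23 against 3.29, exact permutation p = 0.1, adjusted 0.15). Pdgfc relative to Pdgfd was higher by 1.70 (mean 0.74 ± 0.51 against -0.95 ± 0.71, SD, exact permutation p = 0.1, adjusted 0.15). The sites did not overlap in any of these 3 differences, and none can pass at this number of tumors. On log2(FPKM + 1) the differences shrank to 0.49 for Pdgfra relative to Pdgfrb and -0.38 for Pdgfa relative to Pdgfb (both exact permutation p = 0.2) and to 0.58 for Pdgfc relative to Pdgfd (exact permutation p = 0.1). Without flank 1 the first was 0.91.

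Of the cells known to express these genes, fibroblasts and endothelial cells had markers that mostly moved with the site, while fewer mural cell and platelet markers did. Fibroblast markers, a list of 16 genes such as Col1a1, Dcn and Thy1, had a median log2 fold change of 3.55, with 11 higher and 0 lower past the test. Over all genes tested, 2.89% passed as higher. The count of 11 fell to 4 without flank 1 and to 0 without footpad 1, footpad 3 or flank 3, where 13 were at least 2-fold apart with p under 0.05 before adjustment in edgeR. Over all lists 32 genes passed, which fell to 14 without flank 1, to 1 without footpad 1 or flank 3 and to 0 without footpad 3, where 60 list members were at least 2-fold apart with p under 0.05 before adjustment in edgeR. The 1 gene left was a bone and cartilage marker, lower in footpad tumors. For all genes tested the median was -0.0042. The summed fibroblast markers were at 3452, 3493 and 4613 CPM in footpad and at 206, 593 and 235 CPM in flank skin tumors. Flank 2 thus had the highest level of its site both in these markers and in Pdgfra. Pdgfra minus the mean log2 CPM of the fibroblast markers was -0.25 ± 0.20 in footpad and -0.26 ± 1.24 in flank skin tumors (SD, n = 3), a difference of 0.013 (exact permutation p = 1, adjusted 1). The flank skin values were -1.69, 0.27 and 0.63, and this spread limits the comparison: without flank 1 the difference was -0.70, without flank 3 it was 0.46.

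Mural cell markers cover pericytes and smooth muscle. Of 13 tested, 2 passed as higher, Cspg4 (log2 fold change 1.62, edgeR adjusted p = 0.0352) and Acta2 (1.49, edgeR adjusted p = 0.0357), and 0 as lower, with a median of 0.70. Rgs5, a pericyte gene, had 29.8, 79.4 and 46.2 CPM in footpad 1, 2 and 3 against 54.4, 23.3 and 24.0 CPM in flank 1, 2 and 3, and its sites overlapped. Log2 fold changes were above 0 for 11 of the 13, and the sites lay apart for 5, all higher in footpad tumors. Over all genes tested, 2.89% passed as higher, 49.7% had a value above 0 and 17.5% lay apart with footpad tumors higher. The count of 2 mural markers was 1 without footpad 2 and 0 without footpad 1, footpad 3, flank 1 or flank 3. In those 4 fits 3 to 5 were at least 2-fold apart with p under 0.05 before adjustment in edgeR. Kcnj8 and Ndufa4l2 had negative values (-1.105 and -0.63) without passing, and Abcc9 and Higd1b lay near 0 (0.010 and 0.047). Pdgfrb relative to the mean of the 13 mural cell markers was 2.71 ± 0.42 in footpad and 1.75 ± 0.70 in flank skin tumors, and the sites overlapped (difference 0.97, exact permutation p = 0.2, adjusted 0.24). One of the markers, Des, was highest in footpad 2 (39.5 CPM), the tumor highest in skeletal muscle markers. Rgs5 (79.4 CPM) and Acta2 (41.6 CPM) were also highest there, while Cspg4 (17.5 CPM) was lowest there among the footpad tumors. Whether the list reflects mural cells alone was not tested. Of the endothelial markers, 6 of 14 passed as higher, among them Pecam1 (log2 fold change 1.31, edgeR adjusted p = 0.0253) and Emcn (1.26, edgeR adjusted p = 0.0351), and 0 as lower, with a median of 1.17, where 2.89% of all genes tested passed as higher. The endothelial count was 9 in DESeq2, and in edgeR it was 9 without footpad 2, 1 without flank 1 or flank 2 and 0 without footpad 1, footpad 3 or flank 3, where 6 to 9 were at least 2-fold apart with p under 0.05 before adjustment. Relative to their mean, Pdgfb was at -0.64 ± 0.40 in footpad and -1.66 ± 0.29 in flank skin tumors, without overlap (difference 1.02, exact permutation p = 0.1, adjusted 0.15). Of the other cells that hold PDGF, platelet markers had a median of 0.17 with 0 of 9 passing in edgeR, 1 with an unadjusted p under 0.05 and 1 passing in DESeq2. Macrophage markers had a median of 0.61 with 1 of 10 passing, the lysosomal gene Cd68. How far these cells account for the levels of the PDGF genes was not tested.

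**Figure D4:**
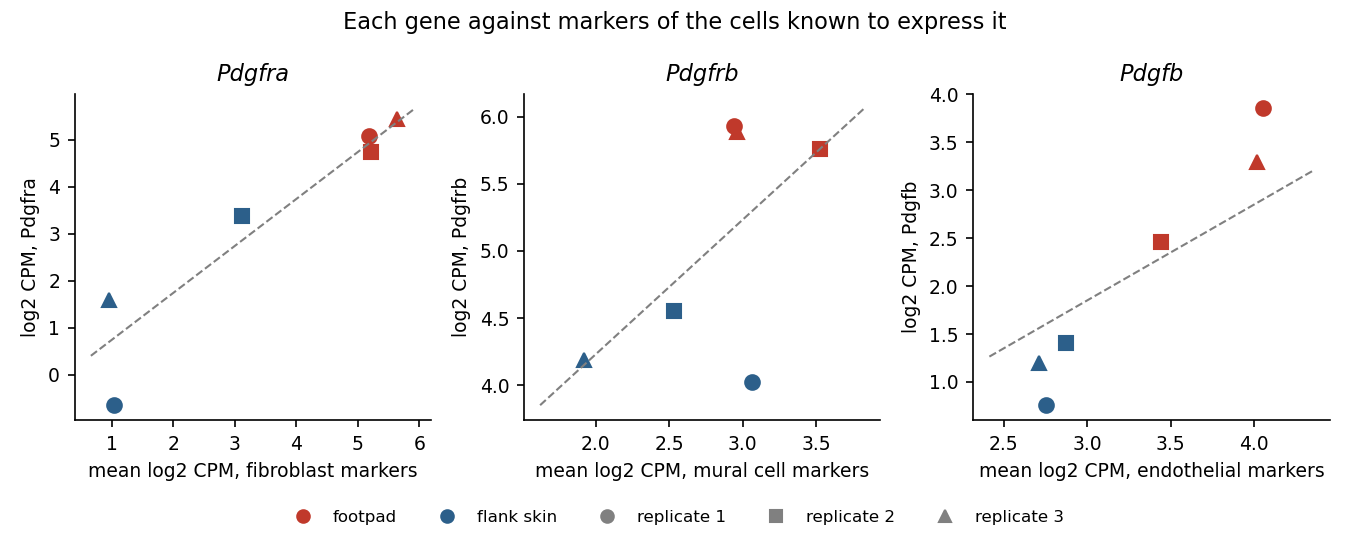
Log2 CPM of Pdgfra, Pdgfrb and Pdgfb (vertical axes) against the mean log2 CPM of fibroblast, mural cell and endothelial markers (horizontal axes) in the footpad tumors (red) and flank skin tumors (blue). The dashed lines have a slope of 1 and mark a constant difference between gene and markers: Pdgfra falls on both sides of its line at both sites, whereas all footpad values of Pdgfb lie above and all flank skin values below theirs.

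The patterns of the members over the 6 tumors were compared by the root mean square difference of their log2 CPM, each gene centered on its own mean, among 12253 genes with a mean of at least 1 CPM. Closest to Pdgfrb were Ece1 (0.0894), Spsb1 (0.112) and Arhgef17 (0.132). For Pdgfra the 3 closest were Smoc2 (0.320), Egfr (0.331) and Tgfbi (0.341), at a larger distance. The median distance over all genes was also larger, at 2.2 from Pdgfra against 0.877 from Pdgfrb. Near Pdgfc lay Flnc (0.138), Pdlim4 (0.231) and the collagen gene Col6a3 (0.255), one of the fibroblast markers. Pdgfb was closest to Shank3 (0.118), Cdyl2 (0.135) and Pxdc1 (0.143), and Pdgfa to Slc7a7 (0.0513), Dhrs3 (0.0640) and Il13ra1 (0.109). Pdgfd had Ctsk (0.239), Bdkrb2 (0.246) and Tlcd2 (0.258) nearest. Within the family, the smallest distances were 0.422 between Pdgfa and Pdgfrb, 0.425 between Pdgfa and Pdgfd, and 0.436 between Pdgfb and Pdgfrb. Many other genes lay closer. Pdgfrb ranked 1475th and Pdgfd 1515th among the neighbours of Pdgfa, and Pdgfa ranked 374th and 75th among theirs. Pdgfb ranked 415th for Pdgfrb, and Pdgfrb 153rd for Pdgfb. Pdgfra and Pdgfc were 0.589 apart, with the same order of the flank skin tumors, and Pdgfc ranked 18th among the neighbours of Pdgfra while Pdgfra ranked 95th among those of Pdgfc. The genes share the libraries, so these distances are descriptions.

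The genes around the receptors were compared next, from lists of known pathway genes. Of 13 genes for maturation, binding and co-reception of PDGF, 1 passed as higher in edgeR and 0 as lower, with a median log2 fold change of 0.95. Values were above 0 in 13 of 13, from 0.093 upward, against 49.7% of all genes tested. The sites lay apart in 8 of 13, all higher in footpad tumors, against 17.5% of all genes tested. DESeq2 and limma on log2(FPKM + 0.1) each passed 4, and edgeR passed 3 with no filter on low counts. In edgeR 3 passed without footpad 2 or flank 1, and 0 without footpad 1, footpad 3 or flank 3, with 3 or 4 of them then at least 2-fold apart and under 0.05 before adjustment. The gene that passed was Pcsk6, a proprotein convertase, with 5.12, 4.42 and 4.39 CPM in footpad 1, 2 and 3 against 1.67, 1.47 and 1.45 CPM in flank 1, 2 and 3 (log2 fold change 1.60, SE 0.26, edgeR adjusted p = 0.0234). Furin, the convertase that trims the PDGF-A and PDGF-B precursors, had a log2 fold change of 1.21 (edgeR adjusted p = 0.0517), and Lrp1, which partners the beta receptor, one of 1.45 (edgeR adjusted p = 0.0514); for both the sites did not overlap. Plat, the activator of PDGF-C, had 21.8, 23.7 and 23.4 CPM in footpad 1, 2 and 3 against 27.0, 5.95 and 4.49 CPM in flank 1, 2 and 3. Its highest level was in flank 1, the tumor lowest in Pdgfc, and the log2 fold change was 0.88 (edgeR adjusted p = 0.410). Plau, with overlapping sites as well, had 0.59 (edgeR adjusted p = 0.208).

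The intracellular signaling list held 40 adaptors, kinases, phosphatases and ubiquitin ligases, and 0 of 40 passed in edgeR or in DESeq2, with 10 at an unadjusted p under 0.05 in edgeR. Between 1814 and 6244 of all 17210 genes tested lay under this unadjusted p. The sites lay apart in 9 of 40 with footpad tumors higher and in 9 with them lower, against 17.5% and 14.9% of all genes tested. The median log2 fold change of the list was 0.086, and its values lay between -0.72 for the adaptor Nck2 and 0.77 for Cblb, a ubiquitin ligase that directs receptors to degradation. Slc9a3r1, a scaffold that binds the beta receptor, had the smallest p of the list (log2 fold change 0.54, edgeR adjusted p = 0.0525), before Nck2 (edgeR adjusted p = 0.0713) and Cblb (edgeR adjusted p = 0.115).

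Of 21 genes known to respond to PDGF and other growth factors, 3 passed as higher and 0 as lower, with a median of 0.22, where 2.89% of all genes tested passed as higher. DESeq2 passed 4. In edgeR the count was 0 without footpad 1, footpad 3 or flank 3, where 5 were at least 2-fold apart with p under 0.05 before adjustment. Ccl2, a monocyte chemokine first cloned as a PDGF-induced gene, had 34.1, 18.6 and 31.9 CPM in footpad 1, 2 and 3 against 2.16, 4.81 and 2.92 CPM in flank 1, 2 and 3 (log2 fold change 3.10, SE 0.37, edgeR adjusted p = 0.0139). The early response transcription factors Egr3 (log2 fold change 3.57, edgeR adjusted p = 0.0214) and Fosb (2.23, edgeR adjusted p = 0.0321) also passed, from levels under 1 CPM in the flank skin tumors. The better-known members of this class did not pass: Fos had 37.2, 22.7 and 31.2 CPM in footpad 1, 2 and 3 against 32.7, 29.1 and 28.5 CPM in flank 1, 2 and 3 (log2 fold change 0.0098, edgeR adjusted p = 0.981), and Egr1 and Myc overlapped between the sites as well. In this list Junb, another early response gene, and Dusp6, a phosphatase that limits ERK signaling, missed the fold threshold alone. Junb was higher in every footpad tumor (log2 fold change 0.99, edgeR adjusted p = 0.0393), and Dusp6 was lower in every footpad tumor (log2 fold change -0.65, edgeR adjusted p = 0.0491).

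Relatives of the family passed in 2 of 15 cases, both higher, with a median of 0.61, where 2.89% of all genes tested passed as higher. DESeq2 passed 3. In edgeR the count was 0 without footpad 1, footpad 3 or flank 3, where 4 were at least 2-fold apart with p under 0.05 before adjustment. Pgf, placental growth factor, a ligand of the VEGF branch, had 161, 72.3 and 107 CPM in footpad 1, 2 and 3 against 35.6, 23.1 and 15.3 CPM in flank 1, 2 and 3 (log2 fold change 2.20, SE 0.38, edgeR adjusted p = 0.0271). Kitl, the ligand of the related receptor Kit, had a log2 fold change of 1.64 (edgeR adjusted p = 0.0437), and Csf1, the ligand of Csf1r, 2.01 (edgeR adjusted p = 0.0593). Their receptors Flt1, Kit and Csf1r had log2 fold changes of 0.44, 0.61 and 1.29 with adjusted p values from edgeR of 0.247, 0.353 and 0.351.

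**Figure D5:**
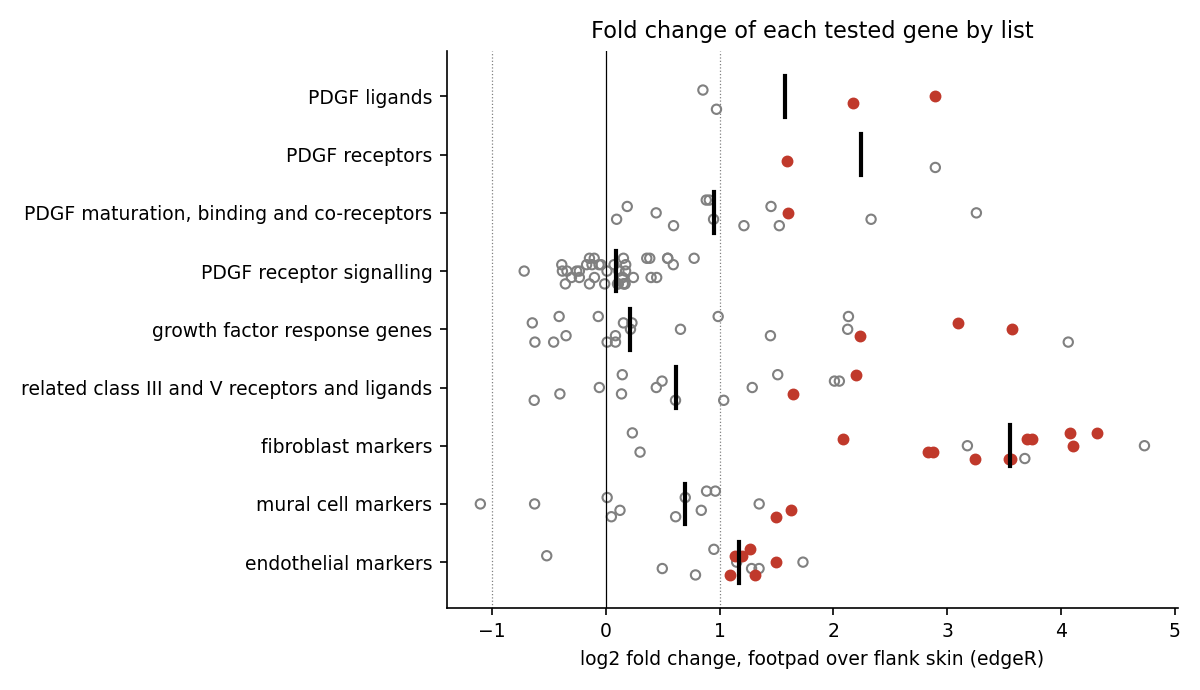
Log2 fold change, footpad over flank skin (horizontal axis), of each tested gene of the PDGF family, of the pathway lists and of the fibroblast, mural cell and endothelial marker lists, with filled points for genes that passed the edgeR test at a 2-fold change, black bars for the list medians and dotted lines at a fold change of 2. Signaling genes lie around 0 with a median of 0.086, while fibroblast markers have a median of 3.55.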

How the data were processed

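After trimming with Trimmomatic and alignment to mm10 by HISAT2 2.1.0, the authors deposited whole read counts per RefSeq gene, without normalization. They also deposited FPKM values, scaled for depth and transcript length. The counting program, its use of strand and the criterion of the filter in the methods are not given in the sources used here. GENCODE places genes of the opposite strand within the spans of Pdgfa, Pdgfc and Pdgfra, whose reads could not be told apart without strand. Those that overlap Pdgfb (Gm41361) and Pdgfd (Ddi1) had 0 reads in every tumor.

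Sites and replicates came from the sample labels. The counts entered edgeR 4.0.16 under R 4.3.3, with TMM factors, filterByExpr, glmQLFit and glmQLFTest. A gene passed where its Benjamini-Hochberg adjusted p over 17210 genes was under 0.05 and it differed at least 2-fold. Each SE was derived from the log2 fold change and its F value. The common biological coefficient of variation was 0.338, and 3 reads equalled 0.0438 to 0.0674 CPM. Differences between genes within a tumor used log2(FPKM + 0.1), or log2 CPM with a prior count of 1, and exact permutation tests. Alternatives were DESeq2 1.42.0, no filter, upper-quartile scaling, limma 3.58.1 on log2(FPKM + 1) and log2(FPKM + 0.1), the replicate number as a block, and each tumor left out. Genes beyond the family were named by a written rule: those called in a pathway list or its 3 smallest p values, examples of marker lists, and the 3 most similar patterns. Plat, Plau, Fos, Egr1, Myc, Junb, Dusp6, Flt1, Kit, Csf1r, Dcn, Thy1, Rgs5, Pecam1 and Emcn are named for their roles, after their values were seen. Kcnj8, Ndufa4l2, Abcc9, Higd1b and Des are named for their values. Keratinocyte, skeletal muscle, adipocyte, Schwann cell, bone and cartilage lists served as a check on composition. The members and lists were chosen with earlier results of these data known. The edgeR fit was tested on counts simulated with its own dispersion trend, which cannot show how it handles a single outlying tumor. Coordinates and promoter windows are from RefSeq on GRCm38.p6, which is mm10.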

Additional observations from a re-analysis of the deposited data

How the results depend on the processing

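Pdgfd did not pass under any of the 12 alternatives, and all 6 members kept a positive log2 fold change under all of them. Without each tumor in turn the log2 fold change lay between 0.83 and 1.16 for Pdgfa, 1.80 and 2.46 for Pdgfb, 2.48 and 3.91 for Pdgfc, 0.37 and 1.09 for Pdgfd, 2.37 and 4.25 for Pdgfra, and 1.47 and 1.75 for Pdgfrb. Pdgfra passed with a log2 fold change of 2.89 from DESeq2, of 1.83 from limma on log2(FPKM + 1) and of 3.10 on log2(FPKM + 0.1), and Pdgfc fell below the fold threshold at 0.84 on log2(FPKM + 1), where the added 1 exceeds most of its values. DESeq2, which the methods of the study name, gave adjusted p values of 2.92e-12 for Pdgfrb, 6.45e-07 for Pdgfb and 1.26e-05 for Pdgfc. Its values were 0.00242 for Pdgfa, which missed the fold threshold alone (log2 fold change 0.97), and 0.315 for Pdgfd. The number of genes called, 647 with edgeR, was 1560 with DESeq2 and 366 with limma on log2(FPKM + 1), and between 0 and 836 without a tumor. It was 0 without footpad 3, with 1879 genes at least 2-fold apart and under 0.05 before adjustment in edgeR, 31 without footpad 1, 46 without flank 3 and 308 without flank 1. Of the genes in the lists, 32 passed, and between 0 and 43 did so without a tumor. With the replicate number as a block, 0 genes and 0 list members passed in edgeR (1791 genes and 59 list members before adjustment), and Pdgfb, Pdgfc and Pdgfrb did not pass, with log2 fold changes of 2.09, 3.24 and 1.60. Same-numbered tumors did not deviate together (correlations across genes of 0.0544, -0.0965 and -0.115). Footpad 1, 2 and 3 correlated best with flank 2, 3 and 1 (0.126, 0.264 and 0.115), so the numbers give no ground for pairing. Deviations from a mean of 3 tumors must cancel within a site, so these correlations cannot exclude shared mice. The study describes simultaneous implantation into both sites, so tumors may have shared mice, but which of them did is not given. Pdgfra relative to fibroblast markers was -0.030 with the median of the list, and between -0.70 and 0.46 without a tumor. Depth limits the low values, with 11 to 64 reads of Pdgfc, 44 to 83 of Pdgfd and 36 of Pdgfra in flank 1 among the flank skin tumors.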

Other observations

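Pdgfrl, a gene named for its likeness to the PDGF receptors and without a kinase domain, was noticed after its values were seen and is no member of the family examined here. It had 109, 130 and 147 reads in footpad 1, 2 and 3, and 0, 23 and 2 reads in flank 1, 2 and 3. The order of the flank skin tumors was that of Pdgfra and Pdgfc. The log2 fold change was 4.09 (SE 1.12, edgeR adjusted p = 0.0760), so that it did not pass.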
